A study of Mus musculus with 4 samples.

Results

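The 8 genes here are mostly ones astrocytes use to take up glutamate, to exchange ions and metabolites through gap junctions and to move water. All 8 were measured in the mouse amygdala. They were the glutamate transporter genes Slc1a1, Slc1a2 and Slc1a3, the glutamine synthetase gene Glul, the water channel gene Aqp4, the connexin genes Gja1 and Gjb6, and Aldh1l1, which encodes a folate enzyme. Every probe that the array files name for 1 of these 8 genes was taken, which gave 8 of the 28090 gene names and 19 of the 41174 transcript probes on the array. A probe entered the tests if some group had 3 or more arrays on which it was well above background, which 18 of the 19 and 28347 probes in all met. The probe left out is named for Slc1a2 but lies on the strand opposite to that gene (chr2:102584501-102584560, build mm9). It was well above background on 0 of 16 arrays.

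Astrocytes clear glutamate from the synaptic cleft with the transporters GLT-1, encoded by Slc1a2, and GLAST, encoded by Slc1a3, while EAAC1, encoded by Slc1a1, is mainly a transporter of neurons. Glutamine synthetase then turns the glutamate into glutamine, which neurons take back to make new transmitter. Gap junctions built from the connexins of Gja1 and Gjb6 join astrocytes into a network, and aquaporin-4 (Aqp4) is concentrated in the astrocyte endfeet that wrap blood vessels. Aldh1l1 is widely used as a marker of astrocytes.

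The whole amygdala came from male C57BL/6J mice aged 10 weeks that were either wild type or without the P2X7 receptor (P2X7R -/- KO), an ion channel opened by extracellular ATP. Mice received saline or lipopolysaccharide (LPS, a bacterial cell wall component) into the peritoneum and were killed 6 h later. The 4 groups were wild-type saline, wild-type LPS, knockout saline and knockout LPS, each of 4 mice per the labels and 4 single-colour arrays. The LPS dose is given as 7.5 µg per mouse and as 250 µg/kg. The labels do not say which deletion allele the knockout carries, nor which mouse each array holds, and p-values here reflect only how much arrays vary, which may be technical. In bulk tissue, fewer astrocytes and less RNA per astrocyte cannot be told apart.

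Levels are log2 intensities minus that array's 75th percentile, and changes are differences of such levels with the standard error of the model (n = 4 arrays per group). A probe was called where its adjusted p was under 0.05. Genotype coincided with slide and with scan session: slides 1 and 2 held the wild-type arrays and slides 3 and 4 the knockout arrays, so a difference between genotypes and a difference between slides cannot be told apart. The 75th percentile of intensity was 345.9 to 1164.7 over the arrays. Wild-type saline arrays 1 and 2 went against their label: the mean level of 20 LPS-responsive genes was 0.08 and 0.32 there, −3.56 and −3.72 on wild-type saline arrays 3 and 4, −3.20 to −2.81 on the knockout saline arrays and −1.11 to 0.68 on the wild-type LPS arrays. Calls of member probes after saline are therefore given with and without these 2 arrays. P2rx7, the targeted gene, had no knockout array above −0.80 (lowest −1.69) and no wild-type array below −0.15 (highest 0.90) by 1 of its probes, and its other probe did not pass between genotypes (0.24 ± 0.29 after saline, adjusted p = 0.51). The position of the deletion relative to these probes is not given in the sources used here.

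The sequences of 4 probes are shown because probes of the same gene gave different genotype results below. Each is a 60-base sequence as the array files give it, written 5′ to 3′. The first pair lies 35 bases apart on the + strand of Slc1a2, at chr2:102617706-102617765 and chr2:102617801-102617860 (mm9), and is annotated to transcript variants 1 and 3. Of the 3 reading frames of the first sequence, 1 holds no stop codon, and the same frame carried along the genome meets the stop codon in capitals, from base 49 of the second sequence. The Glul probe lies at chr1:155751765-155751824 and the Gjb6 probe at chr14:57743017-57743076, and in both of these 2 reading frames hold no stop codon.
Slc1a2 A_52_P168496: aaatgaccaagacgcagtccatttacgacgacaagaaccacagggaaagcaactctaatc
Slc1a2 A_51_P477875: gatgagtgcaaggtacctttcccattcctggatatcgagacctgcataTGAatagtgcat
Glul A_52_P143866: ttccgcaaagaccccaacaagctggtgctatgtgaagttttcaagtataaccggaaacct
Gjb6 A_51_P218937: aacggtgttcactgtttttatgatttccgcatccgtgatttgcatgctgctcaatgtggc

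Knockout and wild type differed in 12 of the 18 member probes after saline (5 higher and 7 lower in knockout) and in 11 after LPS (5 higher and 6 lower). The share of all probes called was similar, 52.1% after saline (26.5% higher and 25.5% lower) and 48.4% after LPS (24% higher and 24.4% lower), so the members' counts lay near the background of this comparison. There were 10 member probes called in both comparisons, all 10 in the same direction, and over all probes 38.9% were called in both, 99.7% of them in the same direction. Both comparisons set slides 1 and 2 against slides 3 and 4, so the second is no independent check of the first. The groups did not overlap for 11 member probes after saline, against 47.4% of all probes, and for 10 after LPS, against 52.3%. The median change of the 18 probes was −0.35 after saline and −0.23 after LPS, beside −0.02 and −0.03 over all probes. Without wild-type saline arrays 1 and 2, 4 member probes were higher and 5 lower after saline, and 36.6% of all probes were called. With normexp background correction the median of all probes after saline moved to 0.51 and 75.5% of calls were higher, against 51% in the main setting, and 5 members were higher and 6 lower.

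**Figure D1:**
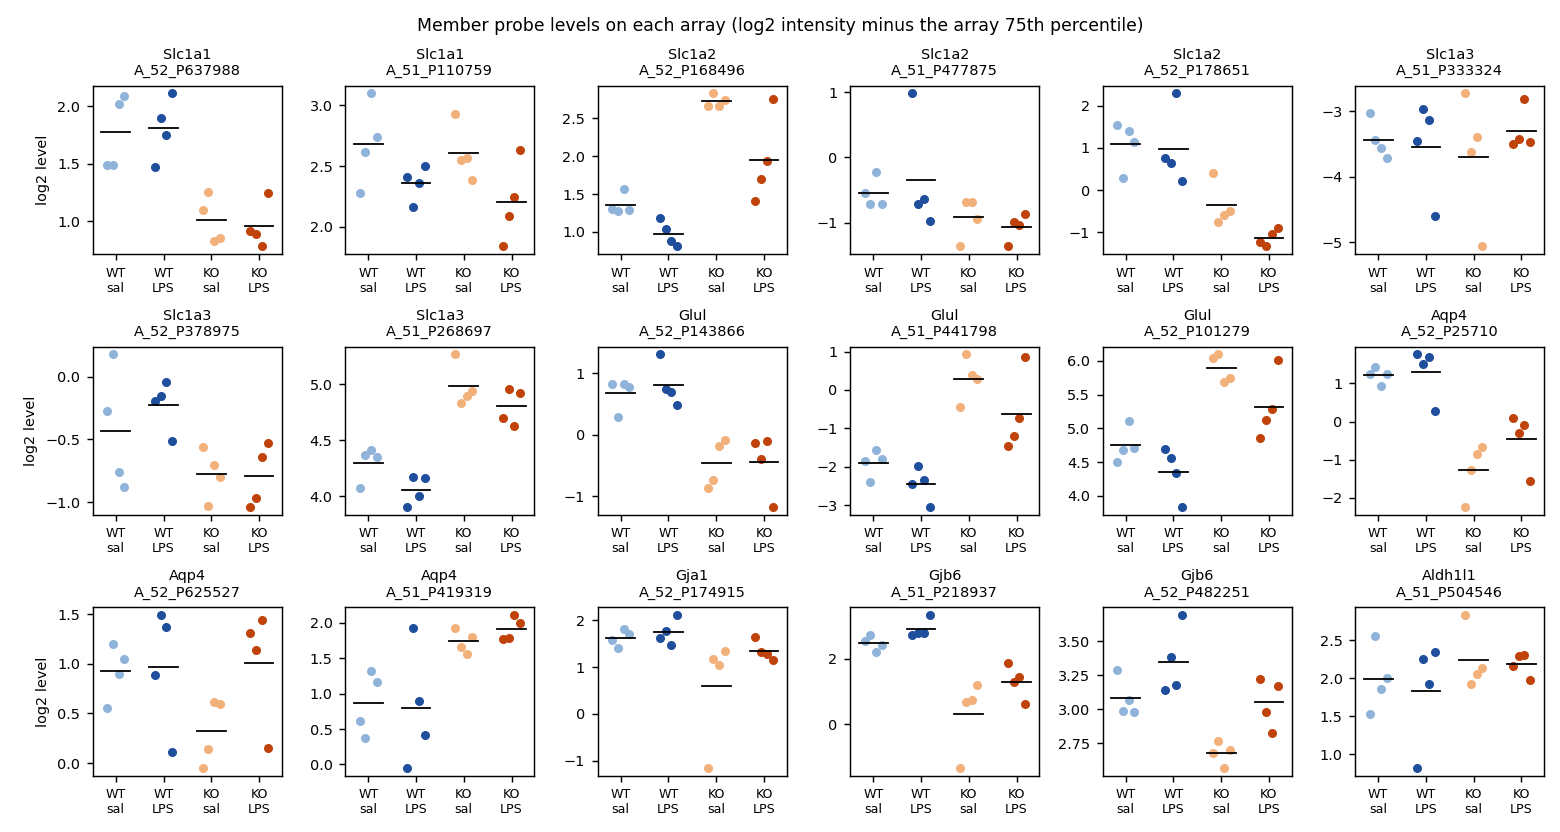
Each panel shows 1 of the 18 member probes, with log2 intensity minus the array's 75th percentile on the vertical axis, 1 point per array (4 per group) and a line at the group mean. The knockout arrays of Slc1a2 A_52_P168496 span 1.41 to 2.83 and the wild-type arrays 0.81 to 1.57, whereas the 3 Glul probes separate the genotypes in opposite directions.

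Slc1a2, the main glutamate transporter of forebrain astrocytes, was higher in knockout by 1 probe and lower by another. The probe A_52_P168496 read 1.30, 1.27, 1.57 and 1.29 on the wild-type saline arrays, 1.18, 1.04, 0.88 and 0.81 on wild-type LPS, 2.66, 2.83, 2.66 and 2.74 on knockout saline and 1.41, 1.70, 1.94 and 2.75 on knockout LPS. Within each treatment every knockout array was above every wild-type array, and knockout LPS array 4 stood with the knockout saline arrays. The level was higher in knockout by 1.36 ± 0.22 after saline (adjusted p = 0.000184) and by 0.97 ± 0.22 after LPS (adjusted p = 0.00244). Its neighbour A_51_P477875, which carries the stop codon shown above, differed by −0.37 ± 0.33 after saline (adjusted p = 0.368) and −0.72 ± 0.33 after LPS (adjusted p = 0.0824), and neither passed. Wild-type LPS array 1 was the high array of that probe, at 0.98 against −0.98 to −0.64 on the other wild-type LPS arrays. Without that array the difference after LPS was −0.28 (adjusted p = 0.291), and without wild-type LPS replicate 4 it passed (−0.94, adjusted p = 0.0347). The third probe, A_52_P178651, lies farther 3′ (chr2:102622068-102622127) and read 1.55, 0.29, 1.40 and 1.13 on wild-type saline and 0.41, −0.76, −0.58 and −0.50 on knockout saline. It was lower in knockout by −1.45 ± 0.39 after saline (adjusted p = 0.00614), where the groups overlapped, and by −2.11 ± 0.39 after LPS (adjusted p = 0.000491), where they did not. After LPS its arrays read 0.77, 0.64, 2.29 and 0.21 in wild type and −1.24, −1.33, −1.05 and −0.89 in knockout. These 4 calls of Slc1a2 stayed under every alternative tried, with and without wild-type saline arrays 1 and 2 (1.29 and −1.62 without them after saline).

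Slc1a3, which encodes GLAST, was higher in knockout by its 3′ probe. A_51_P268697 (chr15:8584236-8584295) read 4.07, 4.37, 4.41 and 4.35 on wild-type saline, 3.90, 4.17, 4.00 and 4.16 on wild-type LPS, 5.27, 4.83, 4.90 and 4.94 on knockout saline and 4.70, 4.96, 4.63 and 4.92 on knockout LPS. All 8 knockout arrays were above all 8 wild-type arrays. The difference was 0.69 ± 0.15 after saline (adjusted p = 0.00183) and 0.74 ± 0.15 after LPS (adjusted p = 0.00111). Without wild-type saline arrays 1 and 2 the difference after saline was 0.61 (adjusted p = 0.022), and quantile scaling ended that call (0.29, adjusted p = 0.0801). The other probes of Slc1a3 target cDNA clones that lie 46337 and 52589 bases upstream of the 3′ probe on the gene's strand. The nearer, A_52_P378975, was lower in knockout after LPS (−0.57 ± 0.22, adjusted p = 0.0445) and did not pass after saline (−0.34 ± 0.22, adjusted p = 0.213, and 0.05 ± 0.21, adjusted p = 0.881, without wild-type saline arrays 1 and 2). That call was near the threshold and was lost under 7 alternatives, among them normexp (−0.41, adjusted p = 0.146), and when any of 8 single arrays was left out. The farther, A_51_P333324, was dim (−5.06 to −2.73) and well above background on 15 of 16 arrays. It differed by −0.27 ± 0.42 after saline (adjusted p = 0.615) and 0.24 ± 0.42 after LPS (adjusted p = 0.664).

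Slc1a1, which encodes EAAC1, was lower in knockout by 1 of its 2 probes. A_52_P637988 (chr19:28987016-28987075) read 1.49, 1.49, 2.02 and 2.09 on wild-type saline, 1.47, 1.90, 1.75 and 2.11 on wild-type LPS, 1.10, 1.25, 0.83 and 0.85 on knockout saline and 0.91, 0.89, 0.78 and 1.24 on knockout LPS. No knockout array reached the lowest wild-type array. The difference was −0.77 ± 0.20 after saline (adjusted p = 0.00449), −1.05 ± 0.22 without wild-type saline arrays 1 and 2 (adjusted p = 0.00272), and −0.85 ± 0.20 after LPS (adjusted p = 0.00242). The probe A_51_P110759, 1316 bases farther 3′, overlapped between genotypes and differed by −0.08 ± 0.21 (adjusted p = 0.768) and −0.16 ± 0.21 (adjusted p = 0.553).

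Glul, the enzyme that makes glutamine from glutamate, was called with all 3 probes, 1 lower and 2 higher in knockout. The probe in the sequence above, A_52_P143866, read 0.82, 0.28, 0.82 and 0.77 on wild-type saline, 1.31, 0.74, 0.70 and 0.48 on wild-type LPS, −0.86, −0.74, −0.19 and −0.08 on knockout saline and −0.14, −0.39, −0.10 and −1.18 on knockout LPS. All knockout arrays were below all wild-type arrays. The difference was −1.14 ± 0.27 after saline (adjusted p = 0.00246) and −1.26 ± 0.27 after LPS (adjusted p = 0.0013), and normexp ended the call after saline (−0.61, adjusted p = 0.0665). Without wild-type saline arrays 1 and 2 it was −1.26 (adjusted p = 0.0101). The probes A_51_P441798 (chr1:155755785-155755844) and A_52_P101279 (chr1:155756750-155756809) lie farther 3′, the latter by 4985 bases. A_51_P441798 read −1.84, −2.40, −1.57 and −1.80 on wild-type saline and −0.44, 0.93, 0.39 and 0.28 on knockout saline, a difference of 2.19 ± 0.42 (adjusted p = 0.000623). After LPS it read −2.45, −1.97, −2.34 and −3.05 in wild type and −1.45, −1.21, −0.74 and 0.86 in knockout, a difference of 1.82 ± 0.42 (adjusted p = 0.00254). A_52_P101279 read 4.50, 4.68, 5.11 and 4.71 on wild-type saline, 4.69, 4.56, 4.34 and 3.83 on wild-type LPS, 6.05, 6.10, 5.69 and 5.75 on knockout saline and 4.85, 5.12, 5.29 and 6.02 on knockout LPS. It was higher in knockout by 1.15 ± 0.25 after saline (adjusted p = 0.00146) and 0.97 ± 0.25 after LPS (adjusted p = 0.00503). Both 3′ probes separated the genotypes within each treatment, in the opposite sense to A_52_P143866, and their 4 calls stayed under every alternative tried (1.97 and 0.99 after saline without wild-type saline arrays 1 and 2).

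Aqp4, the water channel of astrocyte endfeet, also gave opposite directions. Its 3 probes lie within 636 bases on its strand. The most 5′, A_52_P25710, read 1.24, 1.43, 0.92 and 1.25 on wild-type saline, 1.76, 1.5, 1.70 and 0.27 on wild-type LPS, −2.24, −1.27, −0.84 and −0.67 on knockout saline and 0.08, −0.31, −0.09 and −1.56 on knockout LPS. Every knockout array was below every wild-type array, with wild-type LPS array 4 and knockout LPS array 4 the low arrays of their groups. The difference was −2.47 ± 0.41 after saline (adjusted p = 0.000184), the largest fall among the members, and −1.78 ± 0.41 after LPS (adjusted p = 0.0023), and without wild-type saline arrays 1 and 2 it was −2.34 ± 0.53 after saline (adjusted p = 0.00441). The middle probe, A_52_P625527, did not pass (−0.60 ± 0.32, adjusted p = 0.127, and 0.04 ± 0.32, adjusted p = 0.92). It passed after saline with correction for the probes' G and C share (−0.93, adjusted p = 0.0379). The most 3′ probe, A_51_P419319, was higher in knockout. It read 0.62, 0.37, 1.32 and 1.17 on wild-type saline and 1.93, 1.66, 1.56 and 1.80 on knockout saline (0.87 ± 0.33, adjusted p = 0.0364), and −0.05, 1.93, 0.90 and 0.42 on wild-type LPS and 1.77, 1.79, 2.11 and 2.00 on knockout LPS (1.12 ± 0.33, adjusted p = 0.0108). The call after saline was lost under 12 of 29 alternatives, among them normexp (0.60, adjusted p = 0.146) and leaving out wild-type saline arrays 1 and 2 (0.49 ± 0.39, adjusted p = 0.334). The groups overlapped after LPS through wild-type LPS array 2.

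The astrocyte connexin probes were called lower in knockout after saline, but only the call of Gjb6 A_51_P218937 stayed under every alternative tried. Gjb6, whose connexin is largely confined to astrocytes in the brain, read 2.56, 2.74, 2.22 and 2.42 on wild-type saline, 2.74, 2.79, 2.78 and 3.34 on wild-type LPS, −1.35, 0.67, 0.75 and 1.21 on knockout saline and 1.86, 1.30, 1.43 and 0.61 on knockout LPS by A_51_P218937, the probe shown above. All knockout arrays were below all wild-type arrays. The difference was −2.16 ± 0.42 after saline (adjusted p = 0.000653) and −1.61 ± 0.42 after LPS (adjusted p = 0.00545). Without wild-type saline arrays 1 and 2 the difference after saline was −2 (adjusted p = 0.0122). Knockout saline array 1 was the lowest, and without it the difference after saline was −1.61 ± 0.26 (adjusted p = 0.000218). The second Gjb6 probe, A_52_P482251, 791 bases farther 3′ (chr14:57742226-57742285), read 3.29, 2.99, 3.07 and 2.98 on wild-type saline and 2.68, 2.77, 2.57 and 2.70 on knockout saline. Its difference was −0.40 ± 0.16 after saline (adjusted p = 0.0464), without overlap, and −0.30 ± 0.16 after LPS (adjusted p = 0.136). The call after saline was lost under 19 of 29 alternatives, among them median scaling (−0.39, adjusted p = 0.0715) and leaving out wild-type saline arrays 1 and 2 (−0.34, adjusted p = 0.187), and the difference after LPS passed with normexp (−0.61, adjusted p = 0.0476).

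Gja1, which encodes the most abundant astrocyte connexin, has 1 probe (chr10:56109814-56109873). It read 1.58, 1.40, 1.82 and 1.71 on wild-type saline, 1.61, 1.77, 1.48 and 2.11 on wild-type LPS, −1.16, 1.17, 1.05 and 1.35 on knockout saline and 1.65, 1.32, 1.28 and 1.15 on knockout LPS. Knockout saline array 1 stood more than 2 log2 units below the other 3 arrays of its group. The difference was −1.03 ± 0.40 after saline (adjusted p = 0.0435) and −0.39 ± 0.40 after LPS (adjusted p = 0.443). Without knockout saline array 1 the values were −0.44 ± 0.18 (adjusted p = 0.0514) and −0.39 ± 0.16 (adjusted p = 0.0546), and without wild-type saline arrays 1 and 2 the difference after saline was −1.17 ± 0.52 (adjusted p = 0.0952). The call after saline was lost under 16 of 29 alternatives, among them leaving out wild-type saline array 3 (−0.96, adjusted p = 0.0868) or 4 (−1, adjusted p = 0.0789).

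Aldh1l1 did not pass between genotypes. Its probe spans an exon junction (chr6:90548335-90548895) and read 1.53 to 2.55 on wild-type saline, 0.82 to 2.34 on wild-type LPS, 1.93 to 2.83 on knockout saline and 1.98 to 2.30 on knockout LPS. The difference was 0.25 ± 0.31 after saline (adjusted p = 0.511) and 0.35 ± 0.31 after LPS (adjusted p = 0.364). With correction for the probes' G and C share it was −0.27 and −0.04, and with normexp 0.32 and 0.40.

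**Figure D2:**
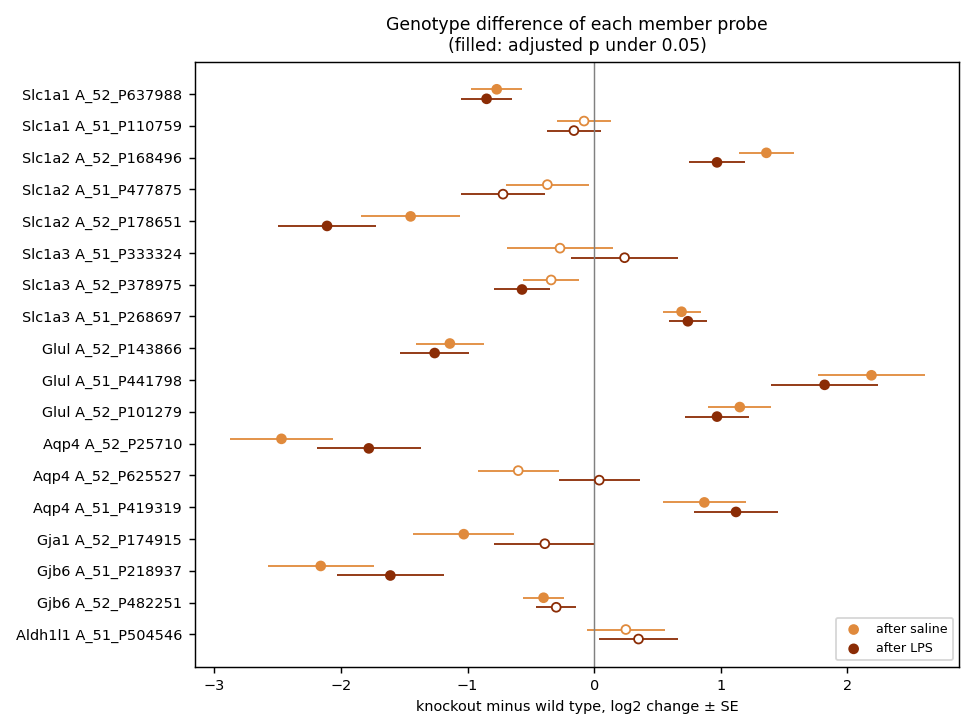
The horizontal axis gives knockout minus wild type (log2 change, bars are SE, n = 4 arrays per group) for the 18 member probes after saline and after LPS, with filled points at adjusted p under 0.05. Points lie on both sides of 0 for Slc1a2, Glul and Aqp4, from −2.47 (Aqp4 A_52_P25710) to 2.19 (Glul A_51_P441798) after saline.

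Slc1a2, Glul and Aqp4 thus each had a probe called higher and another called lower in knockout after saline, and these 3 and Slc1a3 did after LPS, though for Aqp4 after saline and Slc1a3 after LPS this rests on a call lost under many alternatives. Of the 6330 names with at least 2 probes in the test, 14.6% had such opposite calls after saline and 13.5% after LPS. These names were not matched to the members by number of probes, so the shares are not like for like. Slc1a2, Slc1a3, Glul and Aqp4 each have 3 probes in the test, and Slc1a1 and Gjb6 have 2. There were 6 members with at least 2 probes in the test, and in 5 of these 6 the most 3′ probe lay higher in the genotype difference than the most 5′ probe, in both treatments. With normexp it was 4 of 6 after saline, where the shift of Slc1a3 was −0.37, and 5 of 6 after LPS. The shift from the 5′ to the 3′ probe after saline was 0.69 in Slc1a1, 0.95 in Slc1a3, 1.76 in Gjb6, 2.29 in Glul and 3.33 in Aqp4, while in Slc1a2 it was −2.81. After LPS the shifts were 0.70, 0.51, 1.31, 2.23 and 2.89, and −3.08 in Slc1a2. The Slc1a3 probes lie 52589 bases apart, outside the range of the comparison that follows. The Slc1a2 pair is outside it too, since its probes are annotated to different transcripts. Over 2672 RefSeq transcripts with 2 probes 100 to 10000 bases apart, the 3′ probe lay higher in 53.1% after saline and 54.3% after LPS, with a median shift of 0.10 and 0.11. The quartiles of this shift were −0.71 and 0.91 after saline and −0.65 and 0.89 after LPS, and the Slc1a1 shifts lay between them. No direction of difference between genotypes can therefore be given for the genes Slc1a2, Glul and Aqp4 as a whole. The part of probe position, slide or RNA quality in these differences was not tested.

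**Figure D3:**
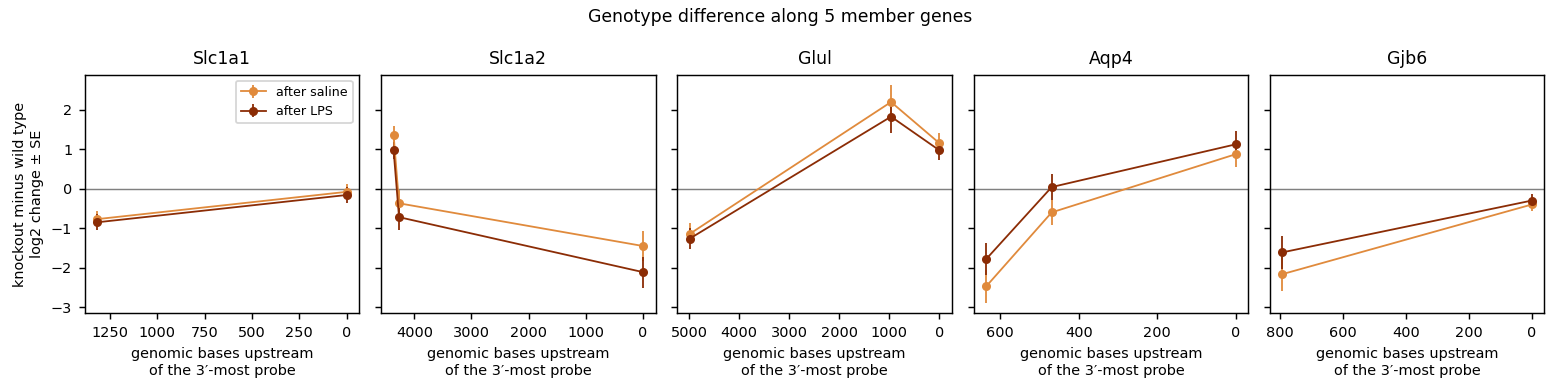
Knockout minus wild type (log2 change ± SE, n = 4 arrays per group) is plotted against the genomic distance of each probe from the most 3′ probe of its gene, which sits at 0 on the right, for 5 member genes. Aqp4 runs from −2.47 to 0.87 after saline over 636 bases, and Slc1a2 falls from 1.36 to −1.45 over 4362 bases.

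No member passed the test for LPS in knockout. Of the 18 probes 0 were called with limma, 6 had an unadjusted p under 0.05, and the lowest adjusted p was 0.0858. Over all probes, 3.04% were called and 14.1% had an unadjusted p under 0.05. The member changes ran from −0.92 to 0.98 with a median of −0.04, beside −0.08 over all probes. The groups did not overlap for 2 members (Slc1a2 A_52_P178651 and Gjb6 A_52_P482251), against 10.5% of all probes.

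The lowest p belonged to Slc1a2 A_52_P168496, which was −0.77 ± 0.22 after LPS in knockout (adjusted p = 0.0858). The change was −1.02 within slide 3 and −0.53 within slide 4. Glul A_51_P441798 stood at −0.92 ± 0.42 (adjusted p = 0.338) and Glul A_52_P101279 at −0.58 ± 0.25 (adjusted p = 0.305). On these 3 probes knockout LPS array 4 lay at the level of the saline arrays and the other 3 LPS arrays lay lower. Without knockout LPS replicate 4, Slc1a2 A_52_P168496 (−1.04 ± 0.17, adjusted p = 0.00729) and Glul A_51_P441798 (−1.42 ± 0.32, adjusted p = 0.0274) fell past the threshold. No other array left out brought a member past it. On the LPS-responsive genes, knockout LPS array 4 lay at 1.80, beside 1.45 to 1.60 on the other 3.

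The connexin and water channel probes lay on the other side of 0 in knockout. Gjb6 A_51_P218937 stood at 0.98 ± 0.42 (adjusted p = 0.3), and at 0.42 ± 0.26 (adjusted p = 0.519) without knockout saline array 1. Gjb6 A_52_P482251 stood at 0.37 ± 0.16 (adjusted p = 0.302), with 3.22, 2.98, 2.83 and 3.17 on the LPS arrays, all above the saline arrays. Gja1 stood at 0.75 ± 0.40 (adjusted p = 0.429), and at 0.16 ± 0.18 (adjusted p = 0.773) without knockout saline array 1. Aqp4 A_52_P25710 and A_52_P625527 stood at 0.79 ± 0.41 (adjusted p = 0.404) and 0.69 ± 0.32 (adjusted p = 0.349). Slc1a3 A_51_P268697 (−0.18 ± 0.15) and Aldh1l1 (−0.05 ± 0.31) did not pass either (adjusted p = 0.625 and 0.952).

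In wild type no member passed the test for LPS either, with 0 of 18 probes called by limma, 0 at an unadjusted p under 0.05 and a lowest adjusted p of 0.855. Over all probes 0% were called and 6.27% had an unadjusted p under 0.05. The groups did not overlap for 1 member, Slc1a2 A_52_P168496 (−0.38 ± 0.22, adjusted p = 0.855), against 4.64% of all probes. Its change was −0.26 within slide 1, which holds the wild-type saline arrays that stand apart, and −0.51 within slide 2. Those 2 arrays were singled out for high levels of LPS-responsive genes, so a larger count without them follows in part from that choice. Without them 649 probes (2.29%) were called in wild type, and still 0 of the 18 members. The largest member changes were then −0.77 ± 0.54 in Glul A_51_P441798 (adjusted p = 0.574), 0.60 ± 0.54 in Gjb6 A_51_P218937 (adjusted p = 0.706) and 0.60 ± 0.21 in Slc1a3 A_52_P378975 (adjusted p = 0.192).

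**Figure D4:**
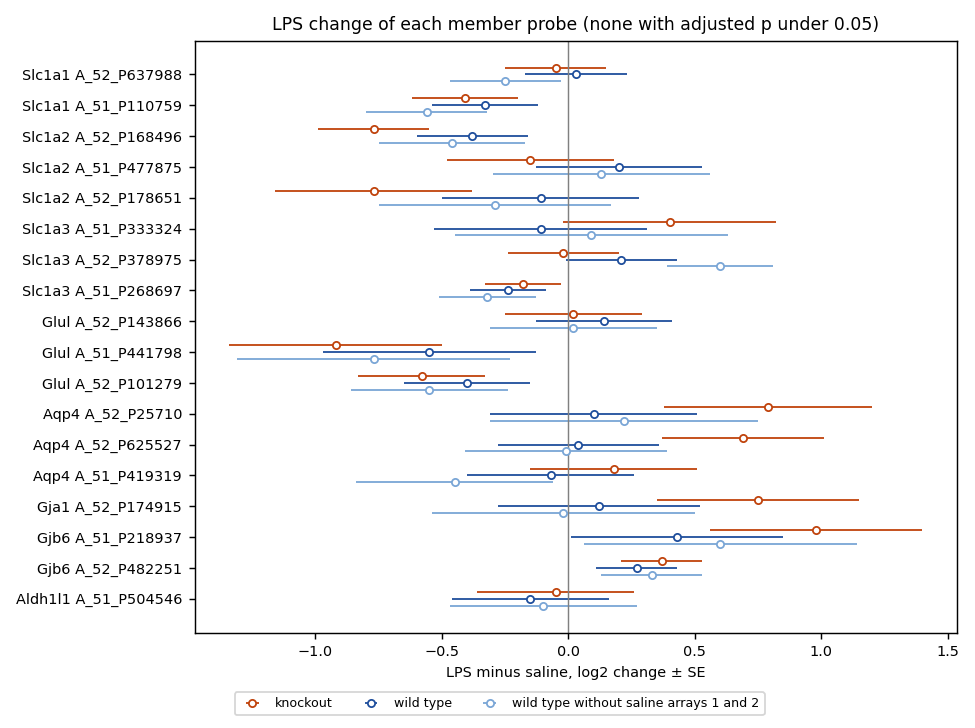
The horizontal axis gives LPS minus saline (log2 change, bars are SE) for the 18 member probes in knockout, in wild type, and in wild type without saline arrays 1 and 2. The knockout values lie between −0.92 and 0.98 and the wild-type values between −0.55 and 0.43, and none of the points has an adjusted p under 0.05.

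The LPS response did not differ detectably between genotypes in any member. The interaction, the LPS change in knockout minus that in wild type, ran from −0.66 (Slc1a2 A_52_P178651) to 0.69 (Aqp4 A_52_P25710), and the lowest adjusted p was 0.921. With limma 0 of 18 were called and 0 had an unadjusted p under 0.05, and 0.00706% of all probes were called. Errors of the interaction were 0.22 to 0.60, and the number of arrays limits what this test can show. Without wild-type saline arrays 1 and 2 it ran from −0.62 (Slc1a3 A_52_P378975, adjusted p = 0.761) to 0.77 (Gja1, adjusted p = 0.898). With those arrays left out, 0 of the 18 members and 0.00353% of all probes were called.

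The probes of 1 gene did not always vary together from array to array. As a description over 16 arrays, the deviations of each array from its group mean were correlated (Pearson's r). Slc1a2 A_52_P168496 followed the 3′ probes of Glul (0.87 with both A_51_P441798 and A_52_P101279). Knockout LPS array 4 was the high array of its group on all of these probes, and r was not taken without it. Glul A_52_P143866 followed Aqp4 A_52_P25710 (0.76) rather than its own 3′ probes (−0.29 and −0.33). Aqp4 A_52_P25710 and A_52_P625527 varied together (0.86), and Aqp4 A_52_P25710 and A_51_P419319 did not (−0.08). Gja1 and Gjb6 A_51_P218937 gave 0.90, which was 0.56 without knockout saline array 1. Slc1a2 A_51_P477875 ran opposite to Aldh1l1 (−0.86). Wild-type LPS array 1 was the high array of that Slc1a2 probe, and r was not taken without it. These arrays share slides and labelling, and the correlations carry no test.

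By the same measure, with each member taken by its brightest probe, the 3 genes most like each member were Hdhd2 (0.92), Ndufaf6 (0.90) and Olfr1410 (0.90) for Slc1a1, Chd8 (0.92), Nadk2 (0.85) and Tmed2 (0.85) for Slc1a2, and Nprl2 (0.93), Larp6 (0.92) and Abcb6 (0.91) for Slc1a3. For Glul they were Rbis (0.92), Ndufa1 (0.91) and Ndufc1 (0.91), and for Aqp4 Nsd2 (0.90), Klf2 (0.89) and Lamb1 (0.89). The values for Slc1a2 and Glul were not taken without knockout LPS array 4. For Gja1 they were Eif4a2 (0.98), Ell2 (0.98) and Tmem267 (0.97), which were 0.81, 0.80 and 0.77 without knockout saline array 1. They were for Gjb6 Il22 (0.88), Zfr (0.83) and Cenpa (0.79), and for Aldh1l1 Mms19 (0.91), Wbp1l (0.91) and Gnptg (0.89). No member was among the 3 nearest of another, since members were left out of this search.

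Other genes of glutamate and glutamine handling were described from a list. Each gene is represented by its brightest probe, and over all genes 2.37% rose and 1.04% fell with LPS in knockout. Of 24 measured genes of the list, 2 fell with LPS in knockout, 0 rose and 22 did not pass (median −0.10, beside −0.09 over all genes). The glutamine transporter Slc38a5 fell by 3.72 on the log2 scale (SE 0.73, adjusted p = 0.0101) and the GABA and taurine transporter Slc6a13 by 1.79 (SE 0.36, adjusted p = 0.0103). After saline 5 of the 24 were higher and 10 lower in knockout, against 28.5% and 22.3% of all genes, and after LPS 3 were higher and 7 lower, against 25.9% and 21.2%. Without wild-type saline arrays 1 and 2 the counts after saline were 2 and 4. The transporter Slc1a6, a glutamate transporter best known from Purkinje cells, was higher by 1.45 ± 0.36 after saline (adjusted p = 0.00399) and 1.41 ± 0.36 after LPS (adjusted p = 0.0052). The cystine-glutamate exchanger Slc7a11 was lower by −2.05 ± 0.68 (adjusted p = 0.0201) and −1.73 ± 0.68 (adjusted p = 0.047), but another of its probes was called in the opposite direction in both, as 2 other probes were for the receptor gene Grm5 after LPS (1.45 ± 0.30, adjusted p = 0.00116). After saline Slc38a5 (1.96 ± 0.73, adjusted p = 0.0352) and Slc6a13 (1.78 ± 0.36, adjusted p = 0.000803) were higher in knockout. Both also fell with LPS in knockout, but the 2 comparisons share the knockout saline arrays and are not independent. For single list genes, values without wild-type saline arrays 1 and 2 are not given here. After LPS the proline and glutamate pathway enzyme Aldh4a1 was lower (−1.37 ± 0.28, adjusted p = 0.00101).

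Among 12 other measured gap junction, pannexin and junction genes, 0 were called for LPS in knockout with limma (median −0.07), 3 were higher and 4 lower in knockout after saline (2 and 4 without wild-type saline arrays 1 and 2), and 4 were higher and 4 lower after LPS. Over all genes 28.5% were higher and 22.3% lower in knockout after saline, and 25.9% and 21.2% after LPS. The oligodendrocyte connexin Gjc3 was lower (−1.99 ± 0.47, adjusted p = 0.00275, and −2.05 ± 0.47, adjusted p = 0.00242), and the vascular connexin Gja5 was higher by its brightest probe (2.18 ± 0.22, adjusted p = 2.38e-06, and 2.36 ± 0.22, adjusted p = 1.33e-06). The 2 other Gja5 probes differed by −0.16 and 0.41 after saline and by −0.22 and 0.76 after LPS. Panx1, which forms ATP-permeable channels, was higher after saline (0.82 ± 0.15, adjusted p = 0.000397), and the neuronal connexin Gjd2 was lower after LPS (−1.93 ± 0.60, adjusted p = 0.0155). Oligodendrocyte markers moved with Gjc3: 7 of 13 were lower and 0 higher in knockout after saline and 9 lower and 1 higher after LPS, and their mean level ranged from 0.33 to 1.98 on wild-type arrays and from 0.01 to 0.69 on knockout arrays. The part of oligodendrocyte content in these differences was not tested.

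With LPS in knockout, 1.04% of all genes fell. Of 19 measured genes of the water channel and perivascular endfoot list, 1 fell and 18 did not pass. After saline 7 were higher and 4 lower in knockout, against 28.5% and 22.3% of all genes. After LPS it was 3 and 3, against 25.9% and 21.2%. Without wild-type saline arrays 1 and 2, 3 and 3 passed after saline. The syntrophin Sntb1 was higher (2.77 ± 0.29, adjusted p = 3.85e-06, and 2.94 ± 0.29, adjusted p = 2.45e-06), as was the chloride channel Clcn2 (1.51 ± 0.25, adjusted p = 0.000212, and 1.31 ± 0.25, adjusted p = 0.000657). Atp1b2, a sodium pump beta subunit, was lower after LPS (−1.55 ± 0.19, adjusted p = 1.98e-05), and the bicarbonate transporter Slc4a4 too (−1.38 ± 0.22, adjusted p = 0.000151), although another Slc4a4 probe was called higher. Dag1, which encodes dystroglycan, was lower after saline (−1.78 ± 0.68, adjusted p = 0.039), and dystrobrevin Dtnb was higher (1.58 ± 0.33, adjusted p = 0.000996) with another probe called lower.

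With LPS in knockout, 1.04% of all genes fell. Of 18 measured folate and one-carbon genes, the glycine cleavage gene Gldc fell (−0.89 ± 0.17, adjusted p = 0.00903) and 17 did not pass. After saline 3 were higher and 4 lower (2 and 3 without wild-type saline arrays 1 and 2), and after LPS 2 and 6. The shares of all genes were 28.5% higher and 22.3% lower after saline, and 25.9% and 21.2% after LPS. Aldh1l2, the mitochondrial counterpart of Aldh1l1, was lower in knockout by −1.42 ± 0.24 (adjusted p = 0.000202) and −1.22 ± 0.24 (adjusted p = 0.000678). The purine enzyme Gart (−1.17 ± 0.15, adjusted p = 1.81e-05) and Mthfd1l (−1.11 ± 0.20, adjusted p = 0.000354) were lower after saline, and Mthfd1 (−0.94 ± 0.21, adjusted p = 0.00209) was lower after LPS.

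The astrocyte identity list and the reactive astrocyte list differed in how many of their genes were called with LPS. In bulk tissue, the cells in which a listed gene rose cannot be told. With LPS in knockout, 2.37% of all genes rose, 1.04% fell and the median change was −0.09. Of 35 identity genes, the transcription factor Sox9 rose (1.09 ± 0.17, adjusted p = 0.00288) and 34 did not pass (median −0.15). Of 23 reactive astrocyte genes, 14 rose and 9 did not pass (median 2.44). The 2 other Sox9 probes changed by −0.16 and 1.76. Among the risers, the chemokine Cxcl10 rose by 9.87 ± 1.49 (adjusted p = 0.0028), the GTPase Gbp2 by 5.67 ± 1.03 (adjusted p = 0.00632), the protease inhibitor Timp1 by 4.28 ± 0.85 (adjusted p = 0.0103) and the oncostatin M receptor Osmr by 3.77 ± 0.59 (adjusted p = 0.00309). In wild type 0 of the 35 and 0 of the 23 were called with limma. Without saline arrays 1 and 2, 1 and 15 rose, and 2.29% of all probes were called. Those arrays were singled out for high levels of LPS-responsive genes, so a larger count without them follows in part from that choice. Between genotypes 11 identity genes were higher and 8 lower after saline (6 and 1 without wild-type saline arrays 1 and 2) and 10 and 7 after LPS. With all arrays, 28.5% of all genes were higher and 22.3% lower after saline, and 25.9% and 21.2% after LPS. The identity counts with all arrays lay near these shares. S100b was higher in knockout (1.66 ± 0.35, adjusted p = 0.00117, and 1.22 ± 0.35, adjusted p = 0.00959) and the zinc transporter Slc39a12 lower (−1.49 ± 0.25, adjusted p = 0.000213, and −1.12 ± 0.25, adjusted p = 0.00195). The mean level of the 35 identity genes ranged from 2.29 to 2.60 on wild-type saline, 2.48 to 2.64 on wild-type LPS, 2.63 to 2.78 on knockout saline and 2.61 to 2.69 on knockout LPS arrays.

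Some marker lists of other cells and regions separated the genotypes and others did not. The mean level of 20 neuron markers was 3.72 to 4.33 on wild-type and 4.45 to 4.56 on knockout arrays, and that of 12 striatum markers 0.00 to 1.33 and −0.66 to −0.19. With normexp the median genotype change of the neuron markers turned from 0.29 to −0.29 after saline and from 0.15 to −0.06 after LPS. That of the striatum markers stayed negative with normexp (−0.72 after saline and −0.44 after LPS). The ranges overlapped for microglia (−0.84 to 0.31 and −0.71 to 0.36), endothelium (−0.58 to 0.44 and −0.69 to 0.36), ependyma and choroid plexus (−2.82 to −0.52 and −3.03 to −1.97), and hippocampus and cortex (−1.34 to −0.33 and −1.54 to −1.12). After saline 7 of 20 neuron markers were higher and 5 lower in knockout, and 0 of 12 striatum markers were higher and 8 lower, against 28.5% and 22.3% of all genes. For microglia 4 of 18 were higher and 1 lower, for endothelium 2 and 1 of 15, for ependyma and choroid plexus 2 and 3 of 10, and for hippocampus and cortex 2 and 6 of 12. With LPS, 3 of 18 microglia markers and 3 of 15 endothelial markers fell in knockout (medians −0.52 and −0.56). Over all genes 1.04% fell and the median was −0.09. Called with limma were 0 of 20 neuron, 0 of 13 oligodendrocyte and 0 of 10 ependyma and choroid plexus markers. Of 12 striatum and 12 hippocampus and cortex markers, 0 and 0 were called. Of 9 oligodendrocyte precursor markers 1 fell. The part of tissue makeup in the members' genotype differences was not tested.

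**Figure D5:**
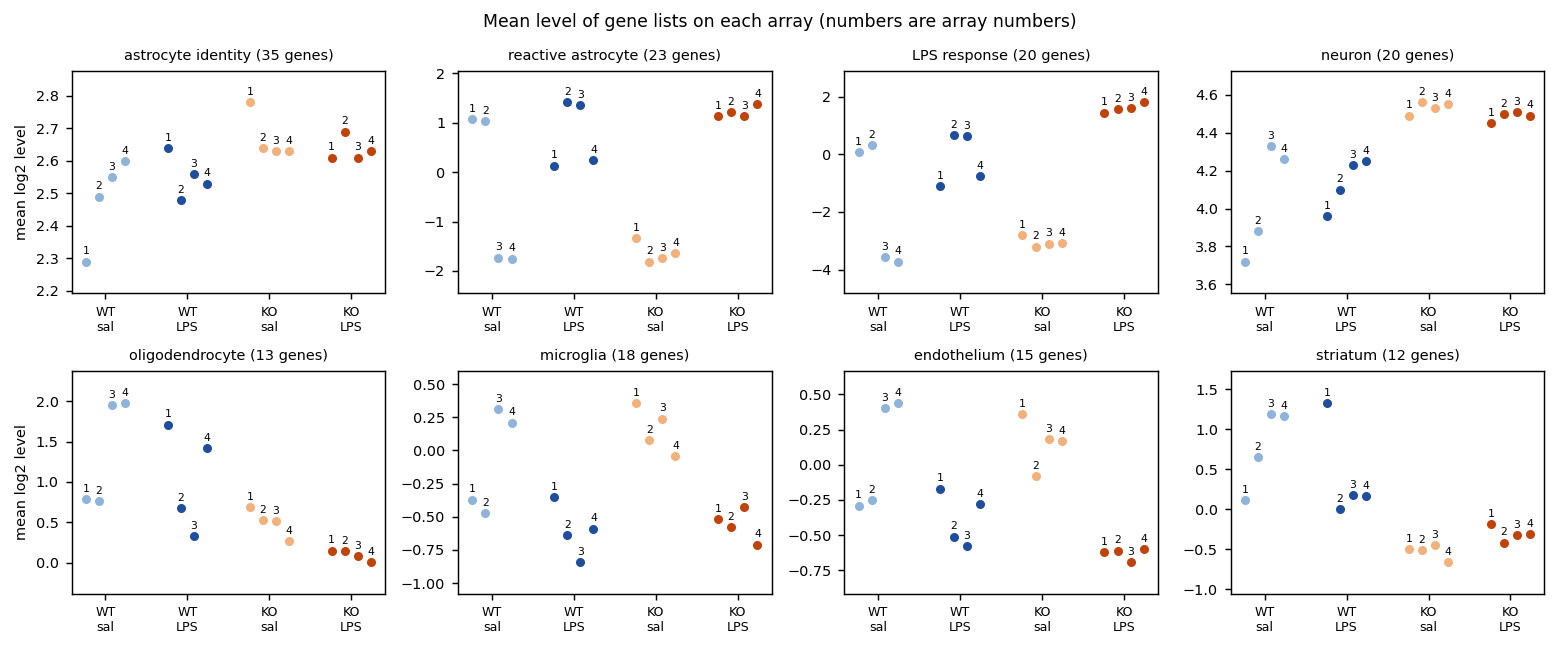
Each panel gives the mean log2 level (relative to the array's 75th percentile) of a gene list on each of the 16 arrays, with points numbered by array within 4 groups. Wild-type saline arrays 1 and 2 lie at 1.07 and 1.04 on the reactive astrocyte list and arrays 3 and 4 at −1.73 and −1.75, while the astrocyte identity list stays between 2.29 and 2.78 on all arrays.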

How the data were processed

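Single-colour Agilent arrays of 16 amygdala samples were used. Per the submitters' processing notes, the authors extracted intensities with Feature Extraction 9.5, which per the file headers gives a background-subtracted processed signal for each spot. From these deposited intensities, log2 of the signal minus the array's 75th percentile was computed, outlier spots were left out, and probes well above background on at least 3 of 4 arrays of a group were kept. Differences were tested with limma 3.58.1 in R 4.3.3 (4 group means over 16 arrays, Benjamini-Hochberg over 28347 probes), after the code was tested on simulated data. The authors' deposited table of log2 group means and fold changes was compared with these differences and otherwise not used, nor were its 32 columns of detection calls. Named list genes are the 4 with the largest changes among those called in each list and comparison, and some of these are not reported here. Genes like a member are the 3 with the highest correlation of deviations from group means. The members and lists were chosen with earlier results of these data known. Probe coordinates are those of the array files (mm9). Alternatives changed the background correction, scaling, filter, block, arrays included and probes per gene.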

Additional observations from a re-analysis of the deposited data

Results flagged for a closer look

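Of 72 sets of 4 arrays (18 member probes in 4 groups), 5 held 1 array far from the other 3, and chance gives about 1 in 20. Gja1 on knockout saline array 1 read −1.16, against 1.05 to 1.35 on the other 3 arrays. Gjb6 A_51_P218937 read 3.34 on wild-type LPS array 4, against 2.74 to 2.79. Slc1a2 A_52_P168496 read 1.57 on wild-type saline array 3, against 1.27 to 1.30. Glul A_52_P143866 read 0.28 on wild-type saline array 2, against 0.77 to 0.82. Slc1a3 A_51_P333324 read −2.81 on knockout LPS array 3, against −3.50 to −3.43.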

How the results depend on the processing

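Of the calls between genotypes, 7 of 12 after saline and 10 of 11 after LPS stayed under every alternative tried. With 1 array left out, 9 to 12 member probes were called after saline, 10 to 12 after LPS, 0 to 2 for LPS in knockout, and 0 for LPS in wild type and for the interaction. The shares of all probes called between genotypes were then 45.2% to 52.2% and 41.7% to 56.6%. With 1 probe per gene, 6 of 8 members were called after saline and 4 of 8 after LPS, against 50.9% and 47.2% of all genes. With normexp, the calls over all probes were 366 in place of 863 for LPS in knockout, 8905 in place of 13718 between genotypes after LPS and 17523 in place of 14758 after saline, and Slc1a3 A_51_P333324 turned from −0.27 to 0.79 after saline (adjusted p = 0.0273). The cause was not tested. Leaving out wild-type saline arrays 1 and 2 gave 649 calls in place of 0 for LPS in wild type. This follows in part from how those arrays were singled out, by their LPS-responsive genes. Shared replicate numbers did not pair the arrays: the correlation of deviations over 24 pairs ran from −0.40 to 0.32 with a median of −0.02. With the replicate block, 9 and 10 member probes were called between genotypes after saline and LPS (49.2% and 45.2% of all probes) and 0 in the other comparisons. The normexp tally of 3′ probes and the correlations without knockout saline array 1 were chosen after seeing the data. The number of arrays limits the precision, and dim probes such as Slc1a3 A_51_P333324 lie closest to background.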
